A study of Mus musculus with 24 samples.

Results

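Complexes I to IV of the respiratory chain were followed as the 64 genes whose symbols name their nuclear-encoded subunits: 35 genes named Nduf for complex I, the 4 Sdh genes of complex II, 8 Uqcr genes of complex III and 17 Cox genes of complex IV. They were taken from 18193 genes that at least 1 probe set of the array names alone, by symbol and not by any measured value. Each gene was read from the probe set with its highest mean over all 24 arrays, out of 133 probe sets for the 64 genes. The low-value filter, a log2 value above 5.08 on at least 3 arrays, was passed by 61 of them (34, 4, 8 and 15 in complexes I to IV), which are the members counted in every test. Cox7b2, Cox8b and Ndufb4 did not pass. Cox7b was not analysed here, and the 9 probe sets that name an Nduf gene together with another gene were left out.

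The cells were macrophages grown from the marrow of C57Bl/6 mice, a standard laboratory strain, and no label names an engineered allele. Each of 4 media (no serum, or 5% fetal calf, mouse or human serum, every serum heated for 30 min at 56 °C) was given without LPS or with 25 ng/ml LPS, the bacterial lipopolysaccharide that activates macrophages, and cells were taken at 4 h. Each of the 8 groups held 3 arrays, 1 from each of the replicate experiments G, H and I. The values are the deposited log2 expression values, and differences are given with the standard error (SE) of a linear model fitted to all 24 arrays with limma, p being adjusted by the Benjamini-Hochberg method over 11785 genes. The labels do not say that the experiments used separate animals, so the p-values measure the spread between experiments. The study's comparisons ask what LPS does to macrophage transcripts in each medium and how the source of serum changes it.

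The respiratory chain passes electrons from NADH (complex I) or succinate (complex II) to coenzyme Q, then through complex III and cytochrome c to oxygen at complex IV. Complexes I, III and IV pump protons across the inner mitochondrial membrane, and the gradient drives ATP synthase. Macrophages activated by LPS are known to move toward glycolysis and to accumulate succinate and itaconate, and complex II, which oxidises succinate, links the chain to that metabolism.

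Array medians over the tested genes ran from 7.95 to 8.28, whereas those over all probe sets ran from 5.04 to 5.13. The median LPS difference over all tested genes was -0.18, and it became 0.03 once each array was centred on its median over the tested genes. The LPS counts of members below are therefore given on the deposited and on the centred values. All 9 macrophage markers on the list (Csf1r, Adgre1, Cd68 and others) exceeded the filter on all arrays, and their summed level was 15.4 to 15.6 on arrays without and with LPS. Of the markers of other cells, 5 of 9 for neutrophils, 3 of 6 for dendritic cells, 0 of 6 for T and NK cells, 2 of 5 for B cells, 2 of 8 for stromal and endothelial cells, 4 of 6 for erythroid cells and megakaryocytes and 1 of 6 for mast cells and basophils passed the filter. The summed stromal level rose with LPS, from 7.35 to 7.68 without it to 7.80 to 8.20 with it, and the other sums overlapped between arrays without and with LPS. The part of these cells in the results was not tested. In bulk RNA, fewer cells of a type and less RNA per cell cannot be told apart.

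On the deposited values LPS lowered most subunits of complexes I, II and III and fewer of complex IV. Averaged over the 4 media, 47 of the 61 members fell and 6 rose, beside 50.5% of all tested genes called lower and 28.9% called higher. One of the 6, Cox4i2, passed the filter only through arrays with LPS, so its call carries no weight, and 5 others rose. In complex I 30 of 34 fell and 2 rose, in complex II 4 of 4 fell, in complex III 6 of 8 fell and 1 rose, and in complex IV 7 of 15 fell and 3 rose. The median difference was -0.30, -0.29, -0.15 and -0.11 for complexes I, II, III and IV, and -0.24 over all members. Each of the 47 fell in all 3 experiments taken alone. The median over all members was -0.21, -0.26 and -0.24 within experiments G, H and I. Whether the complexes differ from each other was not tested.

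After centring, 19 members were lower and 14 higher, beside 35% and 40.9% of all tested genes. Complex I then had 15 lower and 4 higher with a median of -0.09, complex II 1 lower and a median of -0.08, and complex III 3 lower and 2 higher with a median of 0.06. No member of complex IV was called lower after centring, 8 were called higher, and its median was 0.11. Cox4i2 passed the filter only through arrays with LPS, so it carries no weight in the centred counts either. Dim tissue-specific forms, described below, are among the members called higher. The direction for complexes III and IV as groups flipped with centring on the tested genes, while the medians of complexes I and II stayed negative. Of 103 named results, 7 turned sign under this centring. With the arrays centred on all probe sets instead, 97 kept their direction and call and 6 lost the call. With quantile normalization 96 kept both.

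**Figure D1:**
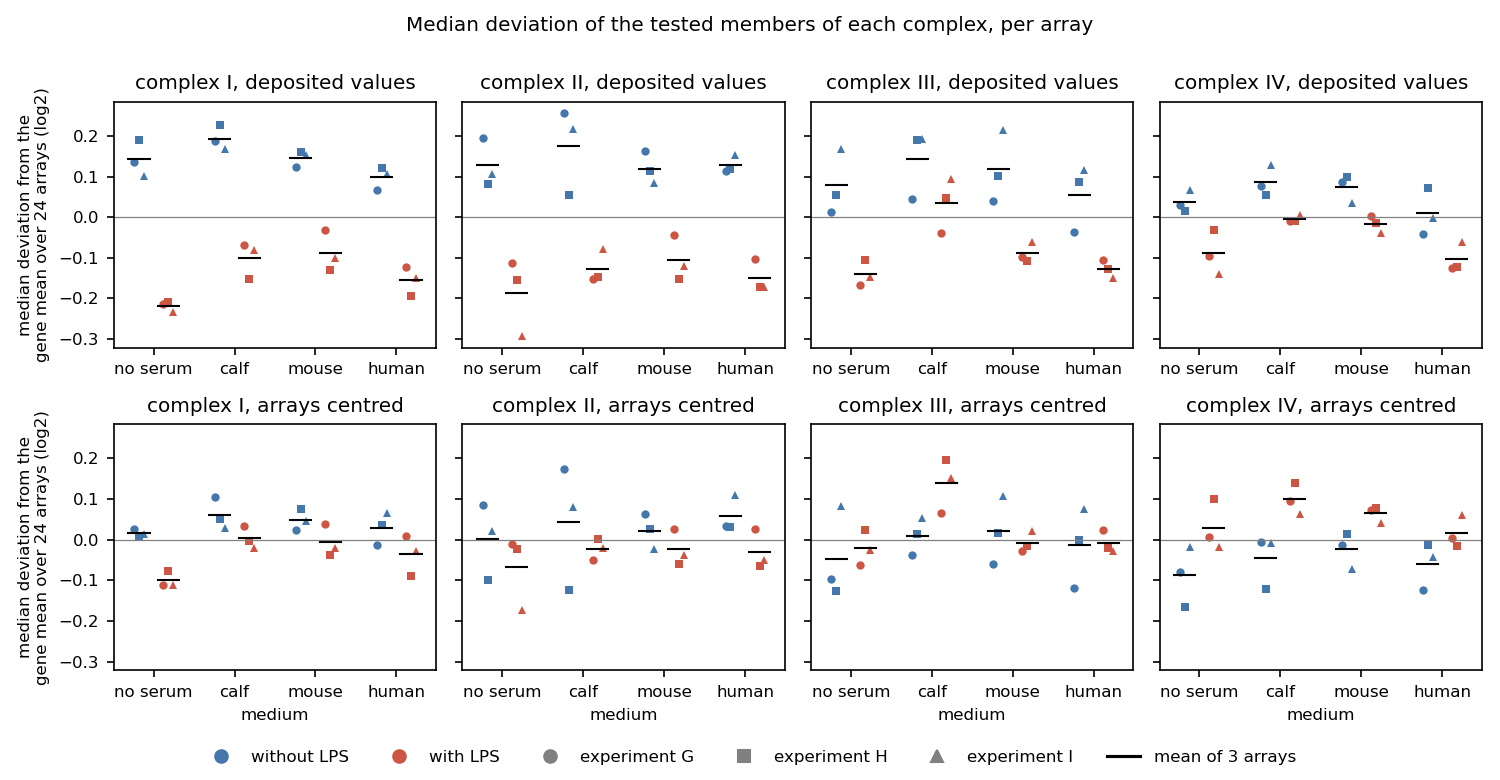
Each point is 1 array: the median, over the tested members of a complex, of the deviation from each gene's mean over 24 arrays (log2), by medium, for the deposited values (upper row) and after centring the arrays (lower row), with the mean of 3 arrays as a bar. In the upper row all 12 arrays with LPS lie under all 12 without it for complexes I and II. In the lower row the arrays overlap for both complexes, and the complex IV medians with LPS lie higher on average.

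Array by array, on the deposited values, the medians of complexes I and II separated the conditions and those of III and IV did not. The median over all tested genes separated them too, with 0.05 as the lowest array without LPS and -0.04 as the highest with it. After centring the arrays overlapped for complex I, at -0.01 without LPS and 0.04 with it. They also overlapped for complex II, at -0.12 without LPS and 0.03 with it. For complex I on the deposited values, the lowest array without LPS stood at 0.07 and the highest array with LPS at -0.03, so the groups did not overlap. For complex II the corresponding values were 0.05 and -0.04. For complex III the arrays overlapped, with an array without LPS as low as -0.04 and an array in calf serum with LPS as high as 0.09. For complex IV they also overlapped, at -0.04 without LPS and 0.01 with it.

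Complex I takes electrons from NADH through a flavin and a row of iron-sulfur clusters carried by its core subunits. Ndufs8, a core subunit that holds iron-sulfur clusters, fell most of all members. In no serum its values were 11.54, 11.61 and 11.18 without LPS in experiments G, H and I, and 10.81, 10.84 and 10.57 with LPS. In calf serum they were 11.67, 11.23 and 11.14 without and 10.89, 10.81 and 10.68 with LPS. The highest of the 12 arrays with LPS, 11.05 in human serum, lay just under the lowest of the 12 without it, 11.11 in the same medium, so the conditions did not overlap. The averaged difference was -0.57 ± 0.08, so that the signal fell by 32.8% (limma adjusted p = 3.28e-07), and -0.36 after centring. In human serum alone the difference was -0.44 ± 0.15 (adjusted p = 0.0163), and the call was lost without the array without LPS of experiment G (-0.40), without the array with LPS of experiment H or I (-0.39 and -0.38), and without experiment H or I (-0.46 and -0.35).

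All 6 tested core subunits of the complex outside the membrane (Ndufs1, Ndufs3, Ndufs7, Ndufs8, Ndufv1 and Ndufv2) fell on the deposited values, with a median of -0.31. Of all tested genes 50.5% were called lower. After centring 2 of the 6 remained lower, with a median of -0.10 over the 6, beside 35% of all tested genes. Ndufs7, which carries the last cluster before coenzyme Q, fell by 0.51 ± 0.06 and was lower after centring too (-0.30, adjusted p = 9.08e-05). Ndufv1, which binds NADH and the flavin, fell by 0.29 ± 0.04. Ndufs1, the largest core subunit of that arm, fell by 0.21 ± 0.05, and its centred difference of 0.00 had the opposite sign. Its call was lost without experiment I (-0.16).

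The 28 tested accessory subunits, which surround the core, had 24 lower and 2 higher, and 13 lower and 4 higher after centring. Of all tested genes 50.5% were lower and 28.9% higher, and 35% and 40.9% after centring. The accessory subunits were counted by symbol and so include Ndufa4, now known as a complex IV subunit, which fell on the deposited values. They also include its relative Ndufa4l2, 1 of the 2 higher. Ndufb11, a subunit of the membrane arm, was lower on every array with LPS than on any array without it. Its values in no serum went from 12.37, 12.54 and 12.50 to 11.75, 11.77 and 11.90 with LPS in experiments G, H and I, and over all media from a range of 12.26 to 12.61 down to 11.75 to 12.08. The averaged difference was -0.52 ± 0.03 (limma adjusted p = 1.52e-12), with -0.48, -0.61 and -0.47 within experiments G, H and I. Ndufb10 fell by 0.51 ± 0.06, Ndufv3 by 0.47 ± 0.03, Ndufb3 by 0.45 ± 0.04, Ndufa6 by 0.44 ± 0.04 and Ndufa8 by 0.40 ± 0.05. All 5 remained lower after centring, between -0.29 and -0.19. Ndufs4, an accessory subunit of the NADH-oxidising arm, gave -0.02 ± 0.05 (adjusted p = 0.629) and 0.19 after centring.

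Ndufb1, an accessory subunit of the membrane arm, rose. In no serum its values were 6.25, 6.31 and 6.57 without LPS and 7.77, 7.63 and 7.85 with it. Over all media the 12 arrays without LPS lay between 5.68 and 6.57, and the 12 arrays with LPS between 7.42 and 7.93. The averaged difference was 1.52 ± 0.09, a 2.86-fold rise (limma adjusted p = 5.68e-13). It rests on a single probe set, and whether that probe set reports Ndufb1 alone was not tested. The second complex I member called higher, Ndufa4l2, an Ndufa4 relative known as a hypoxia target, had a mean of 5.05 over all arrays, below the filter in at least 1 group, and its difference of 0.20 ± 0.09 lost its call under 17 of the 27 settings that left out an array or an experiment.

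**Figure D2:**
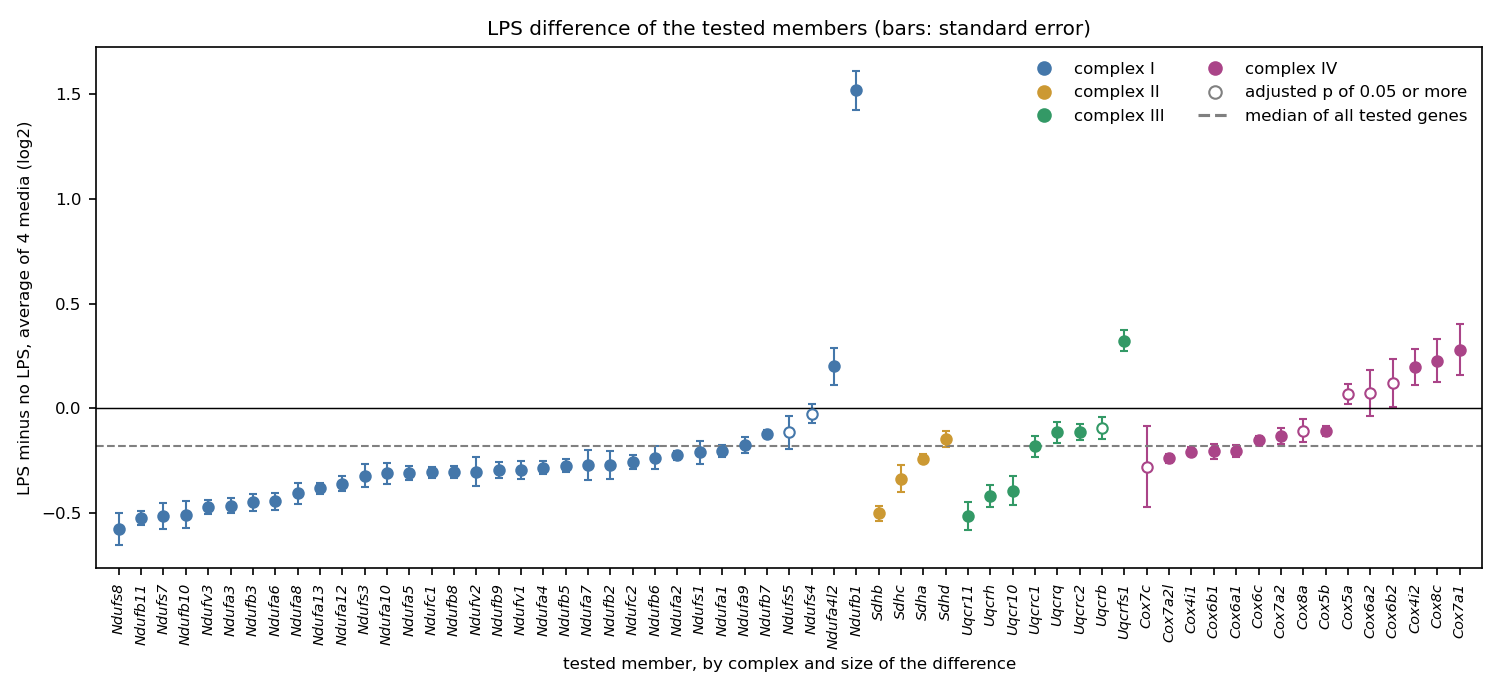
Each point is a tested member, coloured by complex and ordered by size: the LPS difference averaged over 4 media (log2, deposited values) with its standard error, open where the adjusted p was 0.05 or more. The dashed line is the median over all tested genes, -0.18; Ndufb1 stands at 1.52 and Ndufs8 at -0.57, and after centring all points lie 0.21 higher.

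Complex II is both an enzyme of the citric acid cycle and an entry point of the chain. Sdhb, its iron-sulfur subunit, fell most. In no serum its values were 11.18, 11.28 and 11.11 without LPS and 10.54, 10.79 and 10.54 with it, and in human serum they went from 11.22, 11.14 and 11.16 to 10.72, 10.75 and 10.67. No array with LPS reached any array without it in any medium. The averaged difference was -0.50 ± 0.04, so that the signal fell by 29.3% (limma adjusted p = 9.95e-12), and -0.29 after centring (adjusted p = 1.96e-07). Sdhb was 1 of 4 members, out of 61, called lower in all 4 media after centring, beside 13% of all tested genes.

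Sdha, the flavoprotein that oxidises succinate, fell by 0.24 ± 0.02 with no overlap between the arrays: its values in no serum were 12.59, 12.60 and 12.54 without LPS and 12.30, 12.29 and 12.28 with it. Sdhc and Sdhd, which anchor the complex in the membrane, fell by 0.33 ± 0.06 and 0.15 ± 0.04. After centring the 3 differences were -0.03, -0.12 and 0.07, none of them called, and that of Sdhd had turned. The chosen probe sets of Sdhc and Sdhd are of the kind marked as able to cross-hybridise. On the deposited values the other probe set of Sdhc gave -0.33 ± 0.04. That of Sdhd gave -0.32 ± 0.04, a larger fall than the chosen one. Their centred differences are not given, so the turn of Sdhd holds for the chosen probe set only.

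Complex III hands electrons from coenzyme Q to cytochrome c, and its members moved in both directions. Of its small accessory subunits, Uqcr11 fell by 0.51 ± 0.07, Uqcrh by 0.42 ± 0.05 and Uqcr10 by 0.39 ± 0.07, all still lower after centring. Uqcrc1, a core protein outside the redox path, fell by 0.18 ± 0.05 and stood at 0.03 after centring. Uqcrb gave -0.09 ± 0.05 (adjusted p = 0.103).

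Uqcrfs1, the Rieske iron-sulfur protein through which electrons leave coenzyme Q, rose. Its values in no serum were 9.74, 9.76 and 9.69 without LPS and 9.94, 9.97 and 10.04 with it. In calf serum they were 9.67, 9.91 and 9.53 without and 10.08, 10.16 and 10.08 with LPS. Within each medium the arrays with LPS lay above those without it, although over all media the lowest with LPS, 9.80 in mouse serum, lay under the highest without it. The averaged difference was 0.32 ± 0.05, a rise of 25.0% (limma adjusted p = 4.04e-06), and 0.53 after centring. In no serum and in mouse serum alone, at 0.25 ± 0.10 in both, the call was lost when any of that medium's 3 arrays without LPS, its array with LPS of experiment H or I, or any experiment was left out, with differences from 0.20 to 0.32. In human serum it was lost without experiment I (0.29).

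The promoters of these 3 complex III genes are shown because 2 of them fell and showed the largest serum differences described further on, and the third rose. Each is 300 bases from RefSeq (GRCm38.p6), 250 before and 50 after the annotated start, with matches to motifs of factors known to drive respiratory chain genes in capitals: GCGCATGCG for nuclear respiratory factor 1 (NRF1) and CCGGAAGT for GABP, searched on both strands.
Uqcr11 (chr10:80406772-80407071, minus strand): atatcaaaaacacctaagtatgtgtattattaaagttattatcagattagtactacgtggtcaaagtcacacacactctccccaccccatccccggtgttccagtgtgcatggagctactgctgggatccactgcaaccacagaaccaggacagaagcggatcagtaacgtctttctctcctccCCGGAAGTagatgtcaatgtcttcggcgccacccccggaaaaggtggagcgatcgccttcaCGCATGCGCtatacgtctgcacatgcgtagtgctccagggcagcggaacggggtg
Uqcrh (chr4:116075021-116075320, minus strand): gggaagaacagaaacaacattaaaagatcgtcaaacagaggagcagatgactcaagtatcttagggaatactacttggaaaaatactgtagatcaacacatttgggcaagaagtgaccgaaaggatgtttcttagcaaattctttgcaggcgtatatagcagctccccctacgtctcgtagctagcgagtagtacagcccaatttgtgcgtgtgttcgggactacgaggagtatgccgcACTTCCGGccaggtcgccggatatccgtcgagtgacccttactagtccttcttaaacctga
Uqcrfs1 (chr13:30545267-30545566, minus strand): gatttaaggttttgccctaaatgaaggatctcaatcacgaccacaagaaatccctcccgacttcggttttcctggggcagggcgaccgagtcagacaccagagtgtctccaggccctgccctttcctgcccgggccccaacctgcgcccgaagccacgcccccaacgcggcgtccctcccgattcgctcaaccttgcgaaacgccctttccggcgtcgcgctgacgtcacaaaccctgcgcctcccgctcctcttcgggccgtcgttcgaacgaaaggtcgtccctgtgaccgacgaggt
In Uqcr11 the GABP match begins at position -66 and the NRF1 match, on the opposite strand, at position -5, counted with 0 as the annotated start. In Uqcrh the GABP match, on the opposite strand, begins at position -11. The Uqcrfs1 window holds neither string nor those of YY1 (AAGATGGC) or the estrogen-related receptor (TCAAGGTCA).

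Of the 64 members 51 have a promoter in the table. The NRF1 string was in 4 of them (7.84%, against 1.95% of 27025 genes), in Cox6a1, Ndufa8, Uqcr11 and Uqcrc1. The GABP string was in 4 (7.84% against 4.31%), the YY1 string in 6 (11.8% against 3.19%) and the estrogen-related receptor string in 1 (1.96% against 0.466%), that of Sdhd. The 6 with the YY1 string are Ndufa3, Ndufa9, Ndufb8, Ndufc1, Ndufs4 and Ndufs7. The NRF1 and GABP strings share no promoter among the members other than that of Uqcr11.

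**Figure D3:**
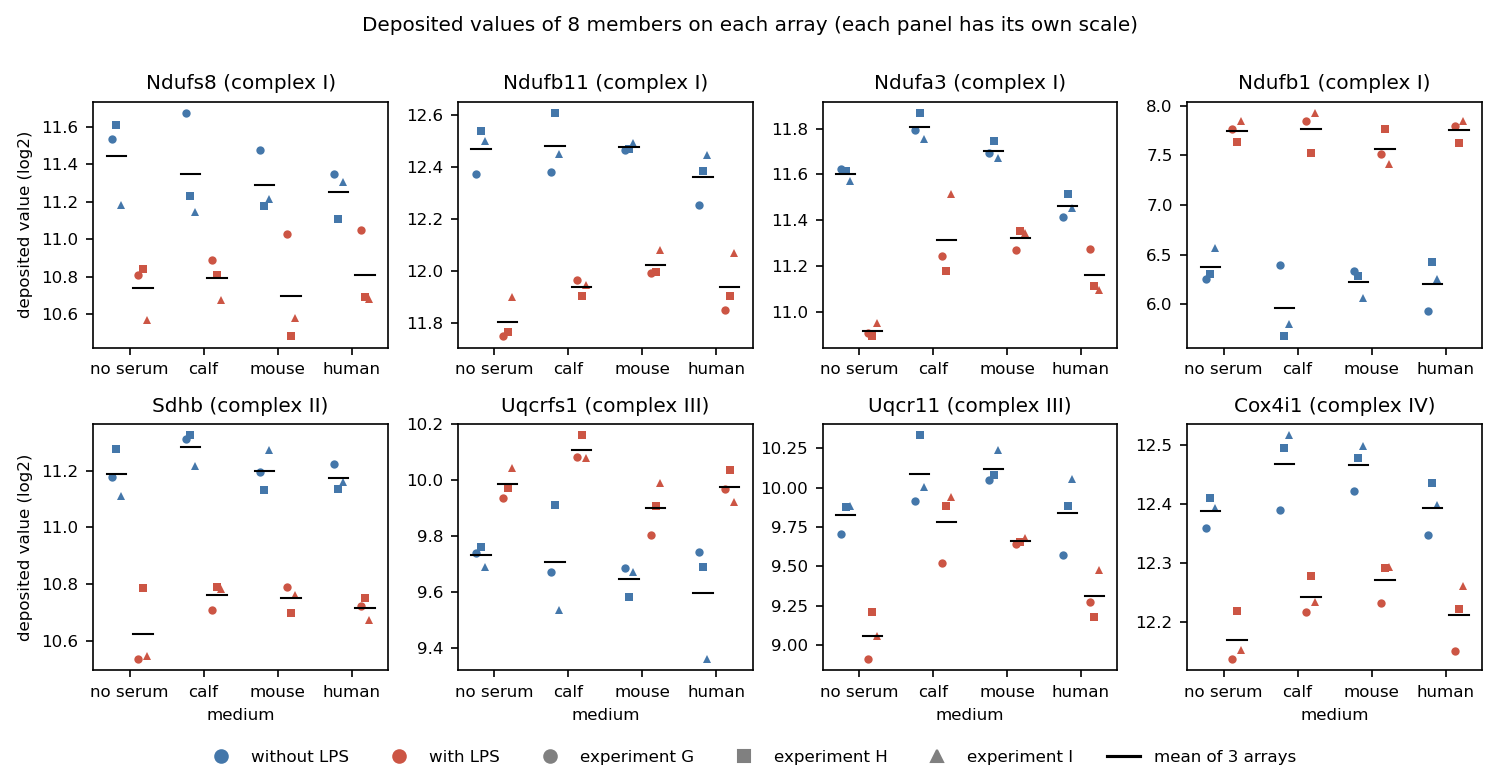
Deposited log2 values of 8 members on each of 24 arrays by medium, blue without and red with LPS, with symbols for experiments G, H and I and a bar for the mean of 3 arrays; each panel has its own scale. Ndufs8, Ndufb11, Sdhb and Cox4i1 have no array with LPS above an array without it, Ndufb1 and Uqcrfs1 rise, and Ndufa3 and Uqcr11 have their lowest mean in no serum with LPS; after centring the averaged Cox4i1 difference is 0.01.

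Complex IV reduces oxygen to water. Cox4i1, its main regulatory subunit, went from 12.36, 12.41 and 12.39 to 12.14, 12.22 and 12.15 in no serum, and no array with LPS reached any without it. The averaged difference was -0.21 ± 0.02 (limma adjusted p = 3.09e-08), against 0.01 after centring (adjusted p = 0.828). Cox7a2l fell by 0.24 ± 0.02, also without overlap, and stood at -0.03 after centring. Cox6a1 and Cox7a2, the widely expressed forms of their subunits, fell by 0.20 ± 0.03 and 0.13 ± 0.04, and their centred differences of 0.01 and 0.08 had the opposite sign. The Cox7a2 call was lost without experiment H (-0.08).

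Cox5a, an early partner of Cox4i1 in assembly, gave 0.07 ± 0.05 (adjusted p = 0.191) and was higher after centring (0.28, adjusted p = 4.46e-05). The tissue-specific forms were dim. Cox4i2, a lung and hypoxia form with a mean of 4.86 over all arrays, exceeded the filter only on the no-serum, calf and human serum arrays with LPS of experiment H (5.19, 5.15 and 5.27), and no array without LPS exceeded 4.91. Its difference of 0.20 ± 0.09 is a description, since it entered the test through the arrays where it is high. Cox7a1, a muscle form at 6.83, gave 0.28 ± 0.12, and Cox8c at 5.79 gave 0.23 ± 0.10, both called higher. Cox6a2, another muscle form, gave 0.07 ± 0.11 (adjusted p = 0.546) and was higher after centring (0.29, adjusted p = 0.0245), and Cox8a, the widely expressed form of its subunit, gave -0.11 ± 0.06 (adjusted p = 0.0828, and 0.047 with the replicate as a block). The calls of Cox4i2, Cox7a1 and Cox8c were lost under 14, 15 and 20 of the 27 settings that left out an array or an experiment. The count of members called higher was 2 without the calf serum array with LPS of experiment G or without experiment H or I. It was 3 without experiment G, without the no-serum arrays of G or H without LPS or of H or I with LPS, without the calf arrays of I without LPS or H with LPS, without the mouse serum arrays of I without LPS or H with LPS, and without the human serum arrays of H without LPS or I with LPS.

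Other probe sets of the same genes were also read. Of 58 further probe sets for 36 of the tested members, 38 were called in the direction of the chosen one and 1 in the opposite direction. That one, for Uqcrq, had a mean of 5.26 and gave 0.31 against -0.11 for the chosen probe set. For 13 only the chosen probe set was called, for 2 only the other one, and for 4 neither. Ndufs8 had 6 probe sets, all lower, from -0.59 to -0.29.

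The LPS differences were seen in each medium. In no serum 42 members were lower and 2 higher (39.1% and 19.8% of all tested genes), in calf serum 35 and 2 (37.8% and 20.8%), in mouse serum 33 and 2 (33.8% and 17.8%), and in human serum 34 and 2 (35.5% and 18.4%). The member medians were -0.26, -0.24, -0.22 and -0.22, and those of all tested genes -0.19, -0.17, -0.15 and -0.16. With the replicate as a block, 45, 43, 40 and 39 members were called in either direction, against 44, 37, 35 and 36 without it. The mouse serum count of lower members fell to 15 without experiment I. After centring, 15 were lower and 6 higher in no serum (24.9% and 31.7%), 9 and 10 in calf serum (23.4% and 33.2%), 7 and 6 in mouse serum (22.1% and 26.1%), and 9 and 3 in human serum (23.1% and 27.4%).

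In all 4 media 26 of the 61 members were lower, against 23.8% of all tested genes: 21 of complex I, 2 of complex II (Sdha and Sdhb), 0 of complex III and 3 of complex IV (Cox4i1, Cox6c and Cox7a2l). Ndufb1 and Uqcrfs1 were higher in all 4, as were 12.9% of all tested genes. After centring 4 members were lower in all 4 (Ndufa13, Ndufb11, Ndufv3 and Sdhb, against 13% of all genes), and the same 2 were higher (against 19.2%). The difference was most negative in no serum for 35 of the 61 members, 21 of 34 in complex I, and in calf, mouse and human serum for 11, 8 and 7. The median over all tested genes was also most negative in no serum, at -0.19 against -0.17, -0.15 and -0.16. No such count is given over all tested genes. The member counts are of sizes on the deposited values, and the differences between media were tested gene by gene as follows.

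Without LPS, serum moved hardly any member. Against no serum, 0 of 61 members were called in calf serum (2.96% of all tested genes), 1 was lower in mouse serum (5.34%) and 0 were called in human serum (10.4%). With limma at an unadjusted p under 0.05 the counts were 4, 2 and 1, and with the replicate as a block 0, 1 and 0. The single call was Ndufa6, an accessory complex I subunit, at -0.27 ± 0.08 in mouse serum (limma adjusted p = 0.029). That call was lost without the no-serum array of experiment H or I, without the mouse serum array of experiment G or H, without any of the 3 experiments (differences from -0.31 to -0.21), and after centring (-0.25, adjusted p = 0.0646).

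With LPS, several members stood higher with calf or mouse serum than without serum. In calf serum 9 were higher and 0 lower (5% and 5.85% of all tested genes), in mouse serum 10 and 0 (6.82% and 6.58%), and in human serum 1 and 0 (2.6% and 2.64%). These 3 comparisons share the no-serum arrays with LPS. After centring 8, 5 and 1 were higher (4.35%, 5.32% and 2.61%). With the replicate as a block 13 members were called in calf and 12 in mouse serum, none of the above being lost. It added Ndufb10 as higher in both sera (adjusted p = 0.0257 and 0.0077) and Ndufv2 in calf serum, and Uqcrq as lower in both and Cox7a2l in calf serum; these were named after their values were seen. The calf count fell to 5 without experiment G or I, and the mouse count to 5 without the no-serum or mouse serum array with LPS of experiment G and to 4 without experiment G or I. The member median was 0.11, 0.10 and 0.04 in calf, mouse and human serum, against 0.03, 0.02 and 0.01 over all tested genes.

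Uqcr11 had the largest of these differences. With LPS its values were 8.91, 9.21 and 9.06 in no serum, 9.52, 9.88 and 9.94 in calf serum, 9.64, 9.66 and 9.68 in mouse serum, and 9.28, 9.18 and 9.48 in human serum. Calf and mouse serum lay above no serum on every array, and human serum overlapped with it. The difference from no serum was 0.72 ± 0.13 in calf serum (limma adjusted p = 0.000801) and 0.60 ± 0.13 in mouse serum (adjusted p = 0.00315), the latter lost without experiment I (0.59). Human serum lay 0.47 ± 0.13 under calf serum (adjusted p = 0.0353), a call lost without the calf array of experiment H or I, the human array of experiment G or H, or experiment H or I (-0.48 to -0.35).

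Uqcrh was higher in calf serum than in each other medium with LPS. Its values with LPS were 11.86, 12.16 and 12.02 in calf serum, and 11.52, 11.57 and 11.30 in no serum, 11.72, 11.48 and 11.63 in mouse serum and 11.36, 11.34 and 11.54 in human serum. No array of the other 3 media reached the lowest calf array. Calf exceeded no serum by 0.55 ± 0.11 (limma adjusted p = 0.00137), lost without experiment I (0.47). Mouse serum lay at -0.40 ± 0.11 and human serum at -0.60 ± 0.11 against calf serum (adjusted p = 0.0275 and 0.000825), and the mouse call was lost without the calf or mouse array of experiment H or I or without either experiment (-0.41 to -0.26).

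Ndufa3, an accessory subunit of complex I, was lowest in no serum with LPS. Its values with LPS were 10.91, 10.89 and 10.95 in no serum, 11.27, 11.11 and 11.10 in human serum, 11.24, 11.18 and 11.52 in calf serum, and 11.27, 11.35 and 11.35 in mouse serum. Every no-serum array lay under every serum array, and calf serum overlapped with both other sera. Calf, mouse and human serum exceeded no serum by 0.40 ± 0.07, 0.41 ± 0.07 and 0.24 ± 0.07 (limma adjusted p = 0.00063, 0.000342 and 0.0491). With the mean of its 3 probe sets in place of the highest, none was called (0.28, 0.16 and 0.05). The human call was lost under 25 of the 27 settings that left out an array or an experiment, where the difference ran from 0.18 to 0.29. Without LPS the values were 11.62, 11.61 and 11.57 in no serum and 11.41, 11.51 and 11.45 in human serum.

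The LPS fall of Ndufa3 was 0.68 in no serum and 0.30 in human serum, and the difference of the 2 responses was 0.39 ± 0.10 (limma adjusted p = 0.0259), the only difference of the LPS response called among the members. In that comparison 4.96% of all tested genes were called. For calf and mouse serum 0 members were called (1.8% and 6.46% of all tested genes); with limma 5 and 9 had an unadjusted p under 0.05, all higher, and the replicate block called 0 and 1, the latter Ndufb10. After centring 0 members were called for any of the 3 sera. The Ndufa3 call was lost without any of the 3 experiments (0.29 to 0.45), without the array of experiment G in 4 groups (no serum and human serum, with and without LPS; 0.33 to 0.38), without the no-serum arrays of experiment H (0.37 with LPS and 0.38 without) or the human serum array without LPS of experiment I (0.38), and after centring (0.33, adjusted p = 0.0528). The chosen probe set of Ndufa3 is of the kind marked as able to cross-hybridise. In a fit of all probe sets, a second one gave 0.29 ± 0.11 (adjusted p = 0.170), and the third, with a mean of 5.43, gave -0.75 ± 0.54. The mean of the 3 gave -0.02, opposite in sign.

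**Figure D4:**
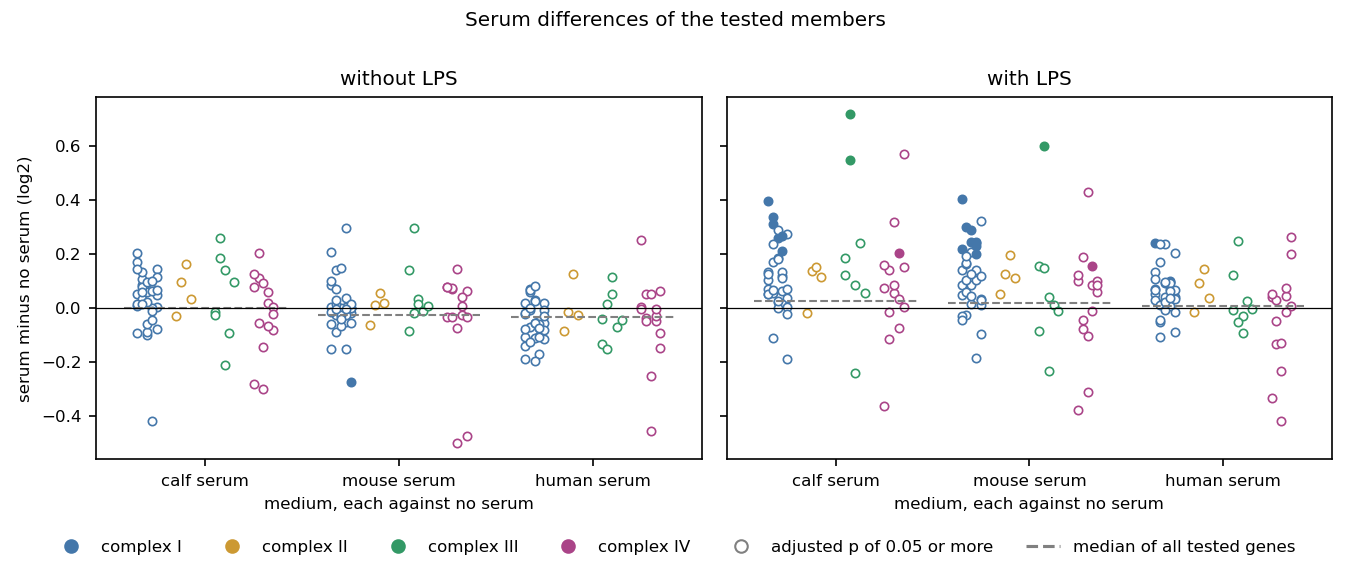
Each point is a tested member, coloured by complex: its difference between a serum and no serum (log2, deposited values) without LPS (left) and with LPS (right), filled where the adjusted p was under 0.05, with the median of all tested genes as a dashed line. The highest points are those of Uqcr11 with LPS, 0.72 in calf and 0.60 in mouse serum, and Ndufa6 in mouse serum is the one filled point without LPS.

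Further complex I members called in both calf and mouse serum with LPS were Ndufa4, Ndufc1, Ndufv3 and Ndufb3. Ndufa4 exceeded no serum by 0.34 ± 0.06 in calf and 0.30 ± 0.06 in mouse serum, Ndufc1 by 0.21 ± 0.05 and 0.23 ± 0.05, Ndufv3 by 0.27 ± 0.07 and 0.24 ± 0.07, and Ndufb3 by 0.26 ± 0.08 and 0.29 ± 0.08. Cox6c, of complex IV, exceeded it by 0.20 ± 0.04 and 0.16 ± 0.04. In calf serum only the call of Ndufa8 (0.31 ± 0.10) was added to these and to those of Uqcr11, Uqcrh and Ndufa3, and in mouse serum those of Ndufa5 (0.20 ± 0.07), Ndufa12 (0.25 ± 0.07) and Ndufb11 (0.22 ± 0.07). Ndufa5, and Ndufb3 in calf serum, where experiment H had the opposite sign, fall outside the rule for named genes and were named after their values were seen. After centring, the calls of Ndufa8, Ndufa5, Ndufa12 and Ndufb11 were lost, as were those of Ndufv3 and Cox6c in mouse serum.

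Several of these calls rested on single arrays with LPS. Ndufa8 lost its call under 14 of the 27 settings that left out an array or an experiment (0.27 to 0.35). Ndufv3 lost it in calf serum without the calf array of G or without experiment G or H (0.23 to 0.28), and in mouse serum without the mouse array of G, the no-serum array of G or I, or experiment G or H (0.16 to 0.26). Ndufa12 lost it without the mouse array of G, the no-serum array of G or I, or experiment G or I (0.15 to 0.25), and Ndufb3 in mouse serum without the mouse array of G or H, the no-serum array of G, or experiment G or I (0.21 to 0.32). Ndufb11 lost it without any mouse array, the no-serum array of G or H, or any experiment (0.19 to 0.24), and Ndufc1 without experiment G in calf serum and without I in both sera (0.19 to 0.22). The differences between calf and mouse serum were not called for these genes.

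Among the sera, human serum against calf serum gave most calls, both among the members and over all tested genes. Without LPS the share of members called lower was 6.56%, under the 7.59% of all tested genes. With LPS it was 6.56% beside 2.6%. Without LPS 4 members were lower in human serum and 0 higher (7.59% and 7.1% of all tested genes): Ndufa3 at -0.35 ± 0.07, Uqcrh at -0.34 ± 0.11, Ndufb3 at -0.25 ± 0.08 and Cox6b1, a complex IV subunit that bridges its dimer, at -0.24 ± 0.07. The replicate block called 7, of which Cox6a2 and Uqcrq were higher and Ndufv3 lower beside these 4. The count was 1 without the human array of experiment G or I, the calf array of H, or experiment I, and 2 without the calf array of I or without experiment H. With LPS 4 were lower and 0 higher (2.6% and 3.67%): Uqcrh and Uqcr11 as above, Ndufv3 at -0.23 ± 0.07 and Cox6c at -0.13 ± 0.04. The block called 6, adding Ndufa6 as higher and Ndufv2 as lower. That count was 1 without the human array of experiment G or H, the calf array of I, or experiment H, and 2 without the calf array of H or without experiment G or I. After centring 1 member was lower (Ndufa3) and 1 higher without LPS, and 2 were lower (Uqcrh and Uqcr11) and 1 higher with LPS. Mouse against calf serum gave 0 calls without LPS (9.63% of all genes; 3 members at an unadjusted p under 0.05, 0 with the block) and Uqcrh with LPS (5.42%), as it did after centring.

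Mouse against human serum gave 1 call without LPS, Ndufa3 at 0.24 ± 0.07 (5.25% of all genes; limma adjusted p = 0.0487, lost under 24 of the 27 settings that left out an array or an experiment). The call was also lost after centring (0.22, adjusted p = 0.0777) and under 7 of the 10 remaining alternatives. With LPS it gave 0 (2.39% of all genes), where 12 members had an unadjusted p under 0.05, all higher in mouse serum, and the replicate block called 0.

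Ndufa4 is named for complex I but is known as a subunit of complex IV. It fell with LPS by 0.28 ± 0.03 on the deposited values, and its paralogue AA467197 rose. Centring moves all averaged differences up alike, so it makes the Ndufa4 fall smaller. The median of the 28 accessory complex I subunits, which include Ndufa4, was -0.29 on the deposited values and -0.08 after centring. Ndufa4 was called lower in all 4 media on the deposited values, but not in all 4 after centring. In no serum Ndufa4 went from 11.79, 11.97 and 11.88 to 11.42, 11.46 and 11.42. In the same groups AA467197, whose protein is known to replace Ndufa4 in complex IV in inflamed cells, went from 8.12, 8.57 and 8.54 to 12.85, 12.94 and 12.84. Over all media AA467197 was 8.12 to 9.99 without LPS and at least 12.63 with it. Its averaged difference was 4.05 ± 0.08, a 16.5-fold rise (limma adjusted p = 2.18e-22). Without LPS it was higher in mouse serum than in no serum by 1.29 ± 0.16, and with LPS none of the sera was called against the serum-free medium, at -0.18, 0.10 and 0.06 for calf, mouse and human serum. Its LPS rise in mouse serum was smaller than in no serum by a difference of -1.20 ± 0.22 (adjusted p = 0.00121). The levels of the 2 genes come from different probe sets and are not compared.

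**Figure D5:**
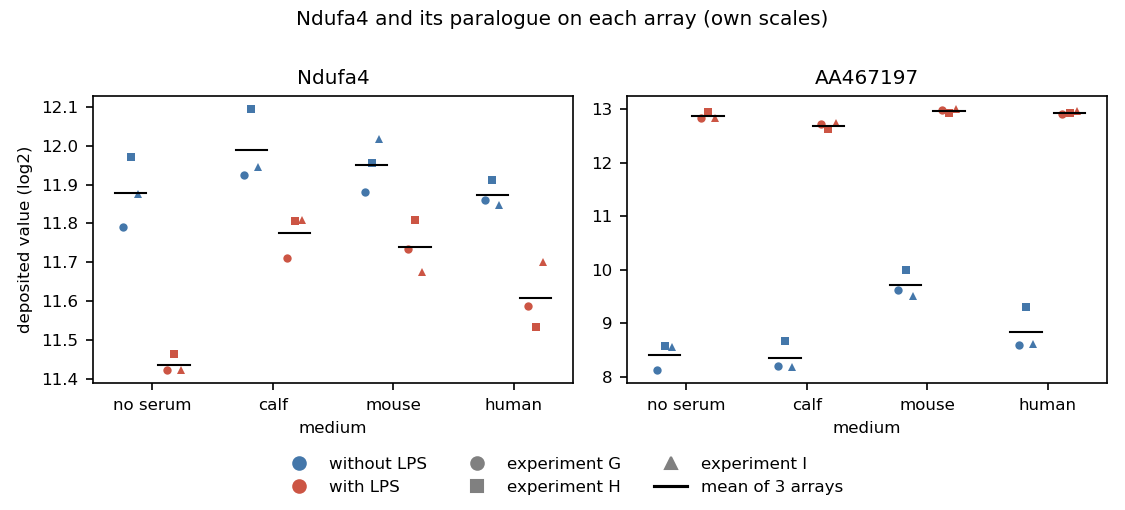
Deposited log2 values of Ndufa4 and AA467197 on each of 24 arrays by medium, blue without and red with LPS, with a bar for the mean of 3 arrays and separate scales. Ndufa4 lies between 11.42 and 11.81 with LPS and is lowest in no serum, and AA467197 lies at 12.63 or higher with LPS, against at most 9.99 without it.

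The other parts of the chain moved as follows with LPS, averaged over the media. Of 19 genes of ATP synthase, complex V, 16 fell and 0 rose, with a median of -0.27, and 6 were lower and 5 higher after centring (median -0.05). Of all tested genes, 50.5% were lower and 28.9% higher, and 35% and 40.9% after centring. Dmac2l, Atp5j2 and Atp5e fell most (-0.87, -0.42 and -0.41). Of 47 assembly factors of complexes I to IV, 30 fell and 8 rose (median -0.33), and 22 were lower and 10 higher after centring (median -0.12), to be read beside the same shares of all tested genes. Coa6, Tmem126b and Coa7 fell by 1.83 ± 0.13, 1.73 ± 0.11 and 1.73 ± 0.18, and Sco1, Cox18 and Coa5 rose by 2.20 ± 0.13, 1.20 ± 0.10 and 0.57 ± 0.04. Sco1, which delivers copper to complex IV, rose more than any member.

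Of 7 subunits and electron carriers outside the symbol rule, 6 fell and 1 rose, and 1 was lower and 2 higher after centring. Cycs, cytochrome c itself, rose by 0.66 ± 0.03, whereas Cyc1, the heme subunit of complex III that reduces it, fell by 0.11 ± 0.05, and Ndufab1, the acyl carrier subunit of complex I, fell by 0.26 ± 0.08. After centring Cyc1 was higher (0.10). The only mitochondrially encoded subunit measured by a probe set, of complex I, gave 0.06 and was not called, and it was higher after centring (0.27).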

How the data were processed

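Expression was measured on 24 Affymetrix arrays, 3 for each of 8 groups, from labelled cDNA. The deposited values are log2 values, 1 for each probe set on an array; GCRMA and Partek are the tools given, per the submitters' processing notes, without versions or settings. The log base is not given in the sources used here and was inferred from the range of the values. Probe sets were named through the platform annotation: of 45101, 34945 name 1 gene. The highest-mean probe set stood for a gene, and 11785 genes passed the filter. A model with 1 mean per group was fitted in limma 3.58.1 (R 4.3.3; trend and robust moderation), p was adjusted over all tested genes within each of 20 comparisons, and the threshold was 0.05. Tests are two-sided and were tested on simulated data. Figures used Python 3.11.15 and matplotlib 3.10.9. With arrays, precision is set by how many there are.

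The members, gene lists, tests and alternatives were chosen with earlier results of these data known. Named members were those called and alike in sign across the 3 experiments, the largest 12 each way for the averaged LPS difference, 8 each way for LPS in 1 medium and for a serum against no serum, and 6 each way otherwise, together with a fixed set of main subunits. Core subunits, the remaining members of a short count and the remaining probe sets of Ndufa3, Ndufs8, Sdhc, Sdhd and Cox5a were picked after their values were seen.

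Experiment letters are shared across groups. Deviations from the group means correlated at a median of 0.062 over 84 same-letter pairs of arrays (-0.046 to 0.183, with 17 over 0.1) and -0.035 over 168 pairs of different letters. The labels call the letters experiments, so the blocked fit is given beside counts of calls and beside named members whose call it changes. The 3 batches in the array names follow the experiments except that the calf serum array without LPS of experiment H carries the batch of experiment G.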

Additional observations from a re-analysis of the deposited data

Results flagged for a closer look

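Ndufa3, an accessory subunit of complex I, had an LPS response that differed between media: the response in human serum minus that in no serum was 0.39 ± 0.10 (limma adjusted p = 0.0259). It is listed because a difference between groups in the same contrast was itself tested and called. Ndufa3 was the 1 call among 61 members, beside 4.96% of all tested genes called there. The fall was larger in no serum (-0.68) than in human serum (-0.30), and the response differed in that direction in each of the 3 experiments. The call was lost after centring on the tested genes (0.33, adjusted p = 0.0528), when experiment G, H or I was left out (0.29 to 0.45), without trend or robust moderation (adjusted p = 0.0693) and without x and s probe sets (0.29), and the mean of its probe sets turned the sign (-0.022). Its probe set is marked as able to cross-hybridise; the part of that in the result was not tested.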

How the results depend on the processing

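Most results kept their direction. Of 103 named results, the settings that left out an array or an experiment gave 2511 values with the same direction and call, 264 that lost the call and 6 that gained it, and the other settings gave 996, 83 and 8, with 8 of opposite sign. With the arrays centred on the tested genes, the LPS difference turned for Ndufs1 (0.0027), Ndufs4 (0.19), Sdhd (0.066), Uqcrc1 (0.032), Cox4i1 (0.0065), Cox6a1 (0.0096) and Cox7a2 (0.080), and the Ndufa3 response difference in human serum turned with the mean of probe sets (-0.022). The cause was not tested, except that centring adds each array's own shift.

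Centring on the tested genes gave LPS medians of -0.085, -0.075, 0.064 and 0.11 for complexes I to IV. It gave 14 members higher and 19 lower for the average, 6 and 15 in no serum, 10 and 9 in calf serum, 6 and 7 in mouse serum and 9 lower in human serum. It also gave 5 higher for mouse serum against no serum with LPS, 0 without LPS, 0 for the human serum response difference, 2 for human against calf serum and 0 for mouse against human serum, both without LPS. Centring on all probe sets gave a complex II median of -0.25, and quantile normalization medians of -0.36, -0.36 and -0.20 for complexes I to III and 1 member higher with LPS in no serum. Leaving out probe sets ending in x or s gave -0.33 for complex II and -0.067 for complex IV. The stricter filter left 3 members higher with LPS on average, and fewer genes were tested there. LPS in mouse serum gave 1 higher without a filter and with only the groups compared.

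Human serum against no serum with LPS gave 0 with centring on all probe sets, the mean of probe sets, no filter, no trend or robust moderation, only the groups compared, and quantile normalization. Mouse against human serum without LPS gave 0 under those 6 settings and without x and s probe sets. The human serum response difference gave 0 with the mean of probe sets, without trend or robust moderation, and without x and s probe sets. Without trend or robust moderation, calf and mouse serum against no serum with LPS gave 5 each, mouse serum without LPS 0, human against calf serum 1 with and 1 without LPS, and mouse against calf serum with LPS 0. With only the groups compared, mouse serum against no serum with LPS gave 4, human against calf serum with LPS 1 and mouse against calf serum with LPS 0. With no filter, human against calf serum gave 1 with and 2 without LPS. The mean of probe sets gave 1 lower for calf serum without LPS. The mouse serum response difference gave 1 with the mean of probe sets, the name batch as block, only the groups compared and the replicate block.

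With the replicate block, calf and mouse serum against no serum with LPS gave 2 and 1 lower, and human against calf serum without LPS gave 7; beside these and the mouse serum response difference it moved no count by over 1.5 times.

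Leaving out an array or an experiment gave these ranges: LPS higher 1 to 2 in no, mouse and human serum and 2 to 6 on average; LPS lower in mouse serum 15 to 34; the complex II median -0.30 to -0.27; mouse serum without LPS 0 to 1 lower; with LPS, calf serum 5 to 10 higher and 0 to 1 lower, mouse serum 4 to 11 higher and human serum 0 to 1 higher. Human against calf serum ranged from 1 to 4 both without and with LPS, and mouse against human serum without and with LPS, mouse against calf serum with LPS, and the response differences of mouse and human serum each from 0 to 1. Members near the filter (Cox4i2, Ndufa4l2 and Cox7c) have little signal over background, which limits their differences.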

Other observations

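Genes around the chain were also counted for LPS averaged over the 4 media, where 50.5% of all tested genes were lower and 28.9% higher, and 35% and 40.9% after centring. Of 76 mitochondrial ribosomal protein genes, 54 fell and 5 rose (median -0.34), and 35 were lower and 14 higher after centring (median -0.13). Mrpl41, Mrpl49 and Mrpl18 fell by 1.74 ± 0.08, 1.11 ± 0.08 and 1.02 ± 0.07, and Mrpl13, Mrpl52 and Mrpl27 rose by 0.79 ± 0.08, 0.76 ± 0.05 and 0.29 ± 0.05. Of 12 genes of coenzyme Q synthesis 8 fell and 0 rose (median -0.26), led by Coq10a, Coq9 and Coq8a at -1.36, -0.93 and -0.89, and 4 were lower and 2 higher after centring. With LPS, calf and mouse serum against no serum gave 7 and 8 of these 76 ribosomal protein genes higher and 0 lower, and 7 and 6 higher after centring, beside 5% and 6.82% of all tested genes higher (4.35% and 5.32% after centring).

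Of 23 tested regulators of mitochondrial biogenesis 13 fell and 7 rose, shares close to those of all tested genes, and 11 were lower and 9 higher after centring. Ppargc1b, a coactivator of respiratory chain genes, rose by 1.74 ± 0.12, Gabpb1, a GABP subunit, by 1.20 ± 0.08, and Sirt1, a deacetylase, by 1.00 ± 0.09. Twnk, the mitochondrial DNA helicase, fell by 1.32 ± 0.08, Gabpb2 by 1.16 ± 0.09 and Mterf1a by 0.94 ± 0.12. Of 6 tested genes of succinate and itaconate handling 2 fell and 1 rose, and after centring 1 was lower and 2 higher. The one that rose, Acod1, which makes itaconate, an inhibitor of complex II, gained 4.49 ± 0.13, from 6.84 to 10.10 without LPS to 13.17 to 13.43 with it. Without LPS it was lower in calf serum than in no serum by a difference of -1.44 ± 0.25 (limma adjusted p = 0.000991), and its LPS response differed between these media by 1.58 ± 0.36 (adjusted p = 0.0179).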
